A study of Mus musculus with 12 samples.

Results

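Global protein synthesis in mammalian cells is set by a small number of kinases and inhibitory proteins, and 10 genes that encode them were followed in ribosome profiling and RNA-seq of pancreatic cancer cells under cisplatin (Cis). They are listed by name for their known roles and were chosen with earlier results of these data known. They are 10 of the 15803 transcripts with a read in any library. All 10 had reads in each of the 12 libraries. The cells were KPC cells, a mouse pancreatic ductal adenocarcinoma line derived, by the study's methods, from a genetically engineered mouse model that uses Pdx1-Cre. Their groups were untreated cells (PBS), cells with 20 μM Cis for 6 h and cells with 20 μM Cis for 21 h, with 2 libraries per group and assay. How long the PBS cells were kept is not labelled, both time points share the same PBS libraries, and nothing in the labels says that the 2 libraries of a group came from separate cultures, so the spread between them may be technical.

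The control of global translation has 3 main arms. Phosphorylation of the initiation factor eIF2 on its alpha subunit lowers the supply of initiator tRNA to the ribosome, and is carried out by the kinases HRI (Eif2ak1), PKR (Eif2ak2), PERK (Eif2ak3) and GCN2 (Eif2ak4), which sense heme or mitochondrial stress, double-stranded RNA, misfolded protein in the ER and uncharged tRNA. Protein phosphatase 1 removes the phosphate with the constitutive subunit CReP (Ppp1r15b) or the inducible subunit GADD34 (Ppp1r15a). The kinase mTOR (Mtor), held back by the complex that contains tuberin (Tsc2), phosphorylates S6 kinase 1 (Rps6kb1) and releases the cap-binding protein eIF4E from its inhibitors 4E-BP1 (Eif4ebp1) and 4E-BP2 (Eif4ebp2). The kinase eEF2K (Eef2k) slows elongation by phosphorylating elongation factor eEF2. These assays measure neither phosphorylation nor the activity of these proteins.

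Levels below are scaled RPKM, which is reads divided by length and by the total of the library (RPKM), brought to a common scale within each assay. Footprints are counted per length of coding sequence and RNA per length of transcript. Each library is set against its own total, so a rise or fall in protein synthesis of the whole cell does not appear in these values. Changes are given as log2 fold changes with their standard error (SE), on the scale of log2(scaled RPKM + 0.5), which understates changes of low genes. The test was limma's moderated test with Benjamini-Hochberg adjustment over all genes tested, and "rose" and "fell" are used for an adjusted p under 0.05. Footprint libraries held 3375480 to 5204127 reads and RNA libraries 1985344 to 2901692, of which 51.8% to 56.6% fell on Lars2, Tmem38b and Mettl26. The epithelial markers Krt8, Krt18, Krt19 and Cdh1 were abundant, while Epcam had at most 9 footprint reads in a library. Of the immune markers, Ptprc and Adgre1 had 0 RNA reads in every library and Cd68 had 4 to 20 footprint reads and up to 9 RNA reads. The summed RPKM of 4 immune markers, of which Cd3e has no value here, was 1.44 to 2.35 with PBS and 2.92 to 5.40 at 21 h in footprints, and 0.403 to 1.03 and 2.13 to 4.27 in RNA. Of 3 endothelial markers, Pecam1 and Cdh5 had 0 RNA reads and Kdr up to 2, and of 4 fibroblast markers Col1a1 had 8 to 26 footprint reads. The summed fibroblast RPKM in footprints was 0.708 to 1.51 with PBS and 1.06 to 4.09 at 21 h. The summed RPKM of 6 epithelial markers in footprints was 9101 to 9781 with PBS and 6697 to 6838 at 21 h, and the part of these markers in the results was not tested.

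Of the 10 genes, Eef2k and Eif2ak2 passed the test against PBS, both at 21 h. Of all genes tested, 39.1% passed at that time in footprints and 23.8% in RNA. Eef2k fell in both assays at 21 h, where its mean level was 0.42 of that with PBS in footprints and 0.29 in RNA. Eif2ak2 fell by a smaller amount in footprints, a call that was lost in several settings and without certain single libraries. Rps6kb1 gained footprints between 6 h and 21 h while its RNA stayed below the PBS level in all 4 Cis libraries. The other 7 genes did not pass the test against PBS in either assay, though the interval of several was wide.

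**Figure D1:**
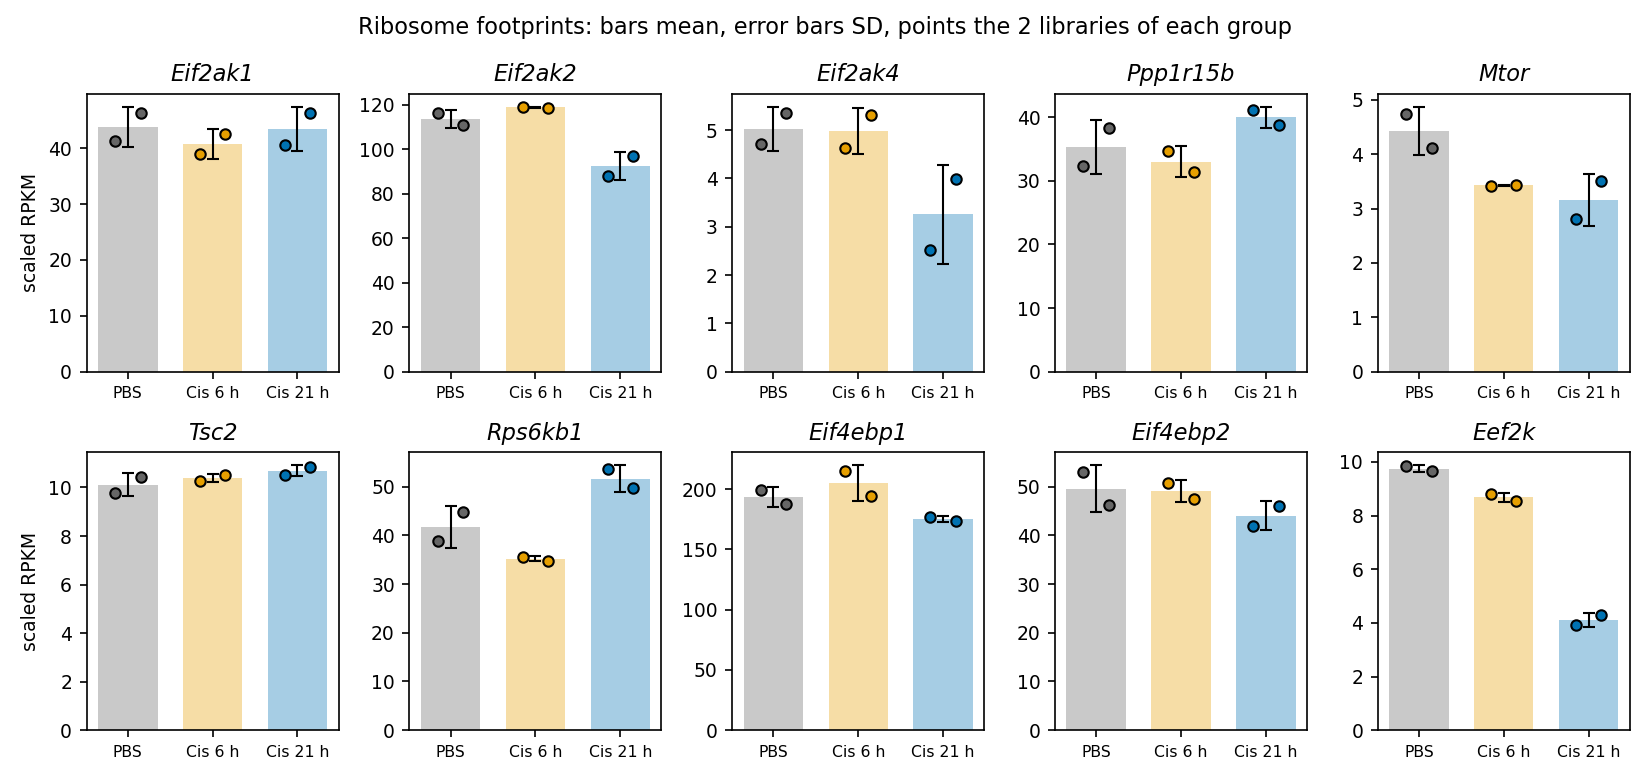
Scaled RPKM of ribosome footprints (vertical axes, each from 0) for the 10 genes with PBS and with Cis for 6 h or 21 h, with points for the 2 libraries, bars for their mean and error bars for their SD. Eef2k lies at 3.91 and 4.28 at 21 h against 9.84 and 9.67 with PBS, and the Rps6kb1 points at 21 h lie above those of both other groups.

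The 10 genes covered a wide range of levels in PBS cells. In footprints the order ran from Eif4ebp1 (193 ± 8.11 scaled RPKM, SD, n = 2) through Eif2ak2 (114 ± 4.10), Eif4ebp2 (49.6 ± 4.84), Eif2ak1 (43.8 ± 3.51), Rps6kb1 (41.8 ± 4.29), Ppp1r15b (35.3 ± 4.22), Tsc2 (10.1 ± 0.47), Eef2k (9.75 ± 0.12) and Eif2ak4 (5.03 ± 0.45) to Mtor (4.43 ± 0.44). The libraries of Eif4ebp2 and Eif2ak1 overlapped, as did those of Eif2ak1 and Rps6kb1, of Tsc2 and Eef2k, and of Eif2ak4 and Mtor, so the order within these pairs is not set beyond their spread. The median gene tested stood at 17.7, and the share of genes below each of the 10 ran from 17.7% for Mtor to 90.8% for Eif4ebp1. At 21 h Rps6kb1 had moved from the fifth place to the third, and Eef2k had come down to the level of Eif2ak4 and Mtor, with overlapping libraries.

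Translational efficiency (TE), the footprints of a gene over its RNA, also differed widely among the 10 genes. In PBS cells Eif4ebp1 lay 1.23 (SE 0.10) above the median gene on the log2 scale, with 88.9% of 9295 genes below it. The lowest were Eif2ak4 at -1.64 (SE 0.24), Tsc2 at -1.18 (SE 0.19) and Mtor at -1.08 (SE 0.22), with 6.53%, 13.1% and 15.1% of genes below. These are the 3 members with the longest coding sequences (1648, 1808 and 2549 codons), and Eif4ebp1 has the shortest, with 117. Across all genes, the 379 with at least 1648 codons had a median of -1.003, and the 383 with at most 120 codons a median of 0.98. The members just named lay on the side that their length class did. Eif4ebp2, with 120 codons, lay close to the median gene, at 0.09 (SE 0.13).

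**Figure D2:**
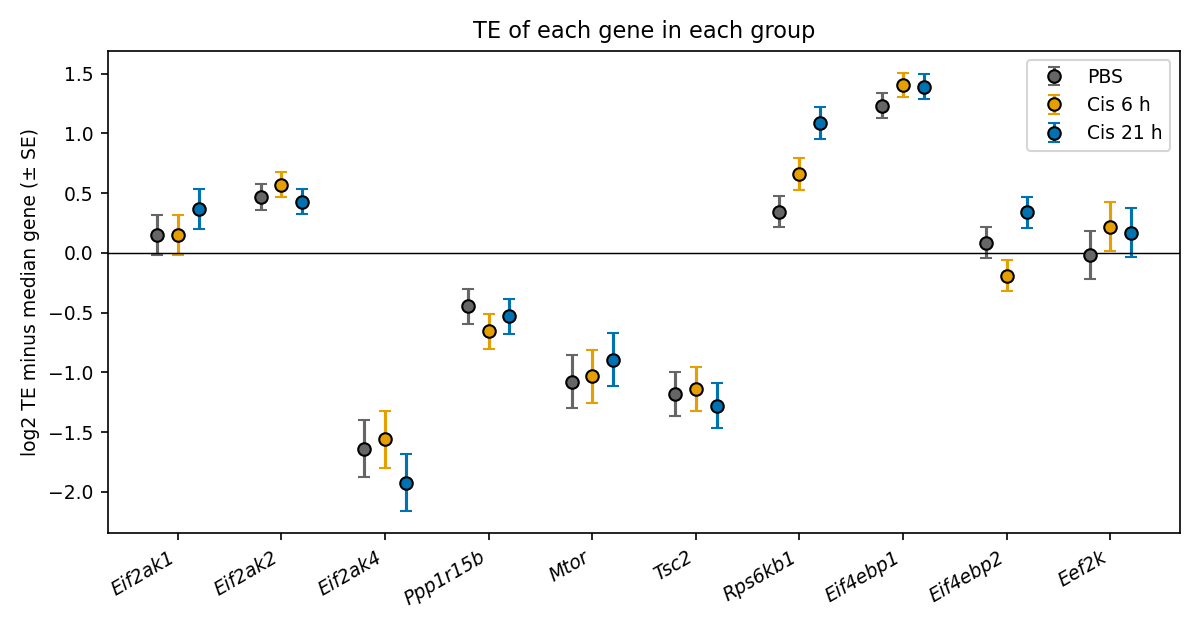
TE of each of the 10 genes on the log2 scale, minus that of the median gene (vertical axis), with PBS and with Cis for 6 h or 21 h, with error bars for the SE of the fit. Eif4ebp1 lies above 0 and Eif2ak4, Mtor and Tsc2 below it in all 3 groups, and Rps6kb1 moves from 0.35 with PBS to 0.66 at 6 h and 1.08 at 21 h.

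Eif2ak2 encodes PKR, the interferon-inducible kinase that binds double-stranded RNA. Its RefSeq promoter, from 250 bases before to 50 bases after the start site in build GRCm38.p6, holds the core of an interferon-stimulated response element (ISRE, searched on both strands). The match is shown in capitals because the kinase is interferon-inducible, and whether this match acts in these cells was not tested. It begins at base 19 after the start site, on the strand of the gene (chr17:78882537-78882562, minus strand).

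Eif2ak2: tccgccggGAAAACGAAAcagaagag

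This motif was found in 3.44% of 32851 promoters and in 1 of 11 promoters of the members, with 8 of the 10 genes in the table. In footprints, Eif2ak2 stood at 116 and 111 scaled RPKM with PBS, 119 and 119 at 6 h, and 88.2 and 96.9 at 21 h. Both libraries at 21 h lay below all 4 others, and against PBS the gene fell at 21 h by 0.30 (SE 0.09, adjusted p = 0.0326 in limma). In RNA the values were 24.5 and 25.3 with PBS, 22.8 and 25.7 at 6 h, and 22.2 and 20.0 at 21 h, a change of -0.24 (SE 0.13, adjusted p = 0.223) at 21 h. TE at 21 h differed from PBS by -0.06 (SE 0.15, 95% interval -0.39 to 0.27). The footprint call was close to the threshold. Limma's adjusted p was 0.121 without the first PBS library, 0.0631 without the second and 0.144 without the first library at 21 h. With every library kept, it was 0.0556 without scaling, 0.0928 without the variance trend, 0.064 with only the groups compared in the model and 0.0532 with the replicate number as a block.

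The other eIF2 kinases showed no change that passed the test against PBS. Footprints of Eif2ak1, the heme-regulated kinase, were 41.3 and 46.3 scaled RPKM with PBS, 38.9 and 42.6 at 6 h, and 40.6 and 46.2 at 21 h. These groups overlapped, and the change at 21 h was -0.01 with a 95% interval from -0.29 to 0.26. Its RNA was 11.8 and 11.7 scaled RPKM with PBS, 9.96 and 12.0 at 6 h, and 8.48 and 12.0 at 21 h, so the lowest and the highest value were both at 21 h. Eif2ak4, the sensor of uncharged tRNA, had footprints of 4.71 and 5.35 with PBS, 4.64 and 5.31 at 6 h, and 2.52 and 3.99 at 21 h. Both libraries at 21 h lay below the other 4 but far from each other, on 47 and 70 reads, and the change was -0.58 (SE 0.26, adjusted p = 0.105). Without the first library at 21 h the change was -0.29 (limma's adjusted p = 0.415), and without the second it was -0.86 (0.043), each resting on a lone library assumed to vary like the other groups. Voom gave an adjusted p of 0.00984. RNA of Eif2ak4 was 4.14 and 5.52 with PBS, 4.23 and 4.66 at 6 h, and 4.03 and 3.69 at 21 h, a change of -0.28 (SE 0.23, adjusted p = 0.415). Eif2ak3, the ER-resident kinase, is the fourth of the family, and its footprints went from 4.34 and 4.32 with PBS to 2.92 and 2.47 at 6 h and 3.26 and 2.19 at 21 h. All 4 Cis libraries lay below both PBS libraries, on 26 to 46 reads, and the change at 21 h was -0.60 (SE 0.27, adjusted p = 0.105). Voom called Eif2ak3 lower there (0.031).

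Ppp1r15b, the constitutive subunit that directs protein phosphatase 1 to eIF2, had footprints of 32.3 and 38.3 scaled RPKM with PBS, 34.7 and 31.3 at 6 h, and 41.1 and 38.8 at 21 h. Its RNA was 13.5 and 15.4 with PBS, 14.4 and 17.1 at 6 h, and 19.1 and 16.5 at 21 h. In both assays the libraries at 21 h lay above both PBS libraries, but the changes of 0.18 (SE 0.13) and 0.29 (SE 0.16) did not pass the test (adjusted p = 0.293 and 0.224 in limma). The inducible relative Ppp1r15a rose in both assays. Footprints of Ppp1r15a were 2.61 and 3.33 with PBS, 4.63 and 4.79 at 6 h, and 26.1 and 25.6 at 21 h, and its RNA went from 3.91 and 3.86 to 20.1 and 22.7 at 21 h. It rose at 21 h by 2.93 (SE 0.19) in footprints and by 2.32 (SE 0.17) in RNA. In PBS cells footprints of the constitutive subunit were at 35.3 on average and those of the inducible subunit at 2.97, and at 21 h they were at 40.0 and 25.9.

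Mtor, the kinase shared by both mTOR complexes, had low counts in both assays. Its footprints were 4.74 and 4.12 scaled RPKM with PBS, 3.42 and 3.43 at 6 h, and 2.81 and 3.50 at 21 h, on 81 to 190 reads. RNA of Mtor was 2.66 and 2.73 with PBS, 1.84 and 2.10 at 6 h, and 1.64 and 1.58 at 21 h. All 4 Cis libraries lay below both PBS libraries in each assay, yet the changes at 21 h of -0.44 (SE 0.24) in footprints and -0.60 (SE 0.27) in RNA missed the threshold in limma (adjusted p = 0.178 and 0.137). Voom called Mtor lower in both assays (0.0154 and 0.0189), and limma without the variance trend did so in RNA (0.0389). TE of Mtor at 21 h differed by 0.16 (95% interval -0.51 to 0.84). Tsc2, which holds mTOR complex 1 back by acting on the small GTPase Rheb, had steady footprints. They were 9.78 and 10.4 with PBS, 10.3 and 10.5 at 6 h, and 10.5 and 10.8 at 21 h, and the change at 21 h was 0.08 (95% interval -0.28 to 0.44). Its RNA was 8.00 and 5.93 with PBS, 6.66 and 7.07 at 6 h, and 7.06 and 8.98 at 21 h, with overlapping groups.

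Rps6kb1 encodes S6 kinase 1, which phosphorylates ribosomal protein S6, and at 21 h its footprint and RNA changes had opposite signs. RNA was 9.94 and 9.49 scaled RPKM with PBS, 6.84 and 6.10 at 6 h, and 7.22 and 7.11 at 21 h. All 4 Cis libraries were below both PBS libraries, with changes of -0.55 (SE 0.18, adjusted p = 0.309) at 6 h and -0.41 (SE 0.18, adjusted p = 0.12) at 21 h. Voom called RNA lower at both times (0.043 and 0.0275). Footprints were 38.8 and 44.9 with PBS, 35.6 and 34.8 at 6 h, and 53.6 and 49.7 at 21 h. They were thus lowest at 6 h and highest at 21 h, with no overlap between the 3 groups. The difference from PBS was 0.30 (SE 0.12, adjusted p = 0.0687) at 21 h, and it passed without scaling (0.0423) and with voom (0.0302). From 6 h to 21 h footprints rose by 0.55 (SE 0.12, adjusted p = 0.0094 in limma). Without the second library at 6 h the adjusted p of that rise was 0.06. TE at 21 h was higher than with PBS by 0.72 (SE 0.19, 95% interval 0.31 to 1.13), a change that had an unadjusted p of 0.00249 in limma and an adjusted p of 0.136. With limma's voom on the recovered reads the adjusted p of the TE change was 0.0345, and over the other settings that kept every library it ran from 0.0956 to 0.219. Rps6kb1 went from the 63.7th to the 85.4th percentile of TE among 9295 genes.

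**Figure D3:**
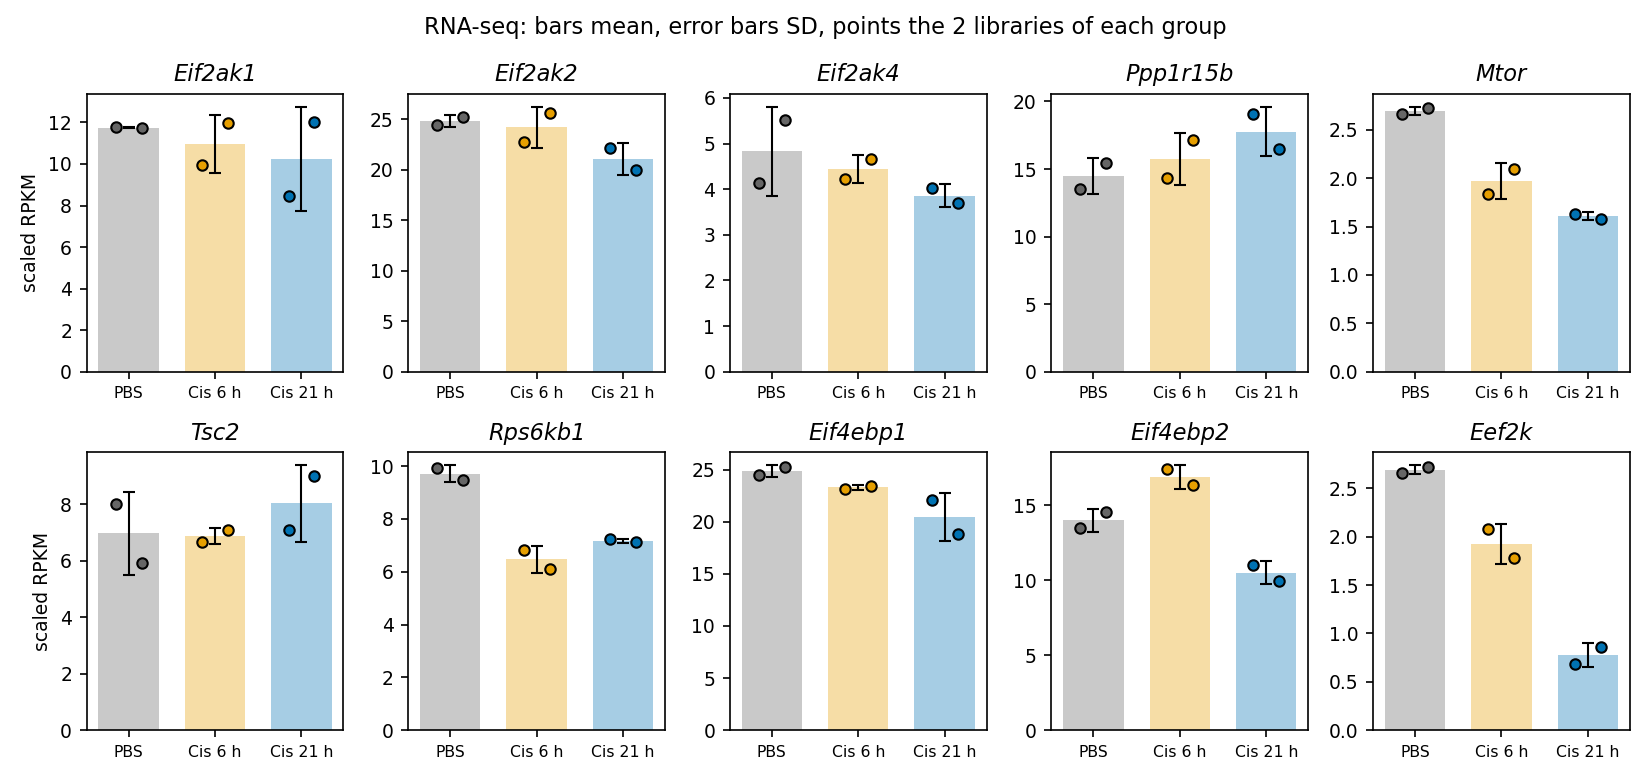
Scaled RPKM of RNA-seq (vertical axes, each from 0) for the 10 genes in the same 3 groups, with points for the 2 libraries, bars for the mean and error bars for the SD. Eef2k falls from 2.66 and 2.73 with PBS to 0.69 and 0.86 at 21 h, and Rps6kb1 lies lower in all 4 Cis libraries than with PBS.

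The 4E-BPs bind the cap-binding protein eIF4E and block initiation when mTOR complex 1 is inactive. Eif4ebp1 had the most footprints per length of the 10 genes in every group, with 199 and 188 scaled RPKM with PBS, 215 and 194 at 6 h, and 177 and 173 at 21 h. The libraries at 21 h lay below both PBS libraries by a small amount, a change of -0.14 (SE 0.09, adjusted p = 0.234), and RNA changed by -0.28 (SE 0.13, adjusted p = 0.153), from 24.5 and 25.3 with PBS and 23.1 and 23.4 at 6 h to 22.1 and 18.8 at 21 h. Eif4ebp2, its close relative, had footprints of 53.0 and 46.2 with PBS, 50.7 and 47.5 at 6 h, and 42.0 and 46.1 at 21 h, a change of -0.17 (SE 0.12, adjusted p = 0.291) at 21 h. RNA of Eif4ebp2 took another course, with 13.4 and 14.5 with PBS, 17.4 and 16.3 at 6 h, and 11.04 and 9.97 at 21 h. The 3 groups did not overlap, being highest at 6 h and lowest at 21 h. Against PBS the RNA changes were 0.26 (SE 0.15, adjusted p = 0.529) at 6 h and -0.40 (SE 0.15, adjusted p = 0.0842) at 21 h. Voom called the latter lower (0.00945). From 6 h to 21 h RNA of Eif4ebp2 fell by 0.66 (SE 0.15, adjusted p = 0.0177 in limma). That adjusted p was 0.0819 without the first library at 6 h, 0.0519 without the second, and 0.0852 without the second at 21 h.

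Eef2k, the kinase that inhibits elongation, changed the most of the 10. Footprints were 9.84 and 9.67 scaled RPKM with PBS, 8.80 and 8.56 at 6 h, and 3.91 and 4.28 at 21 h, on 112 and 96, 90 and 63, and 32 and 33 reads. RNA was 2.66 and 2.73 with PBS, 2.08 and 1.78 at 6 h, and 0.69 and 0.86 at 21 h, on 43 and 53, 26 and 26, and 11 and 13 reads. The groups were in the same order in both assays with no overlap. At 6 h the changes were -0.16 (SE 0.18, adjusted p = 0.656) in footprints and -0.40 (SE 0.29, adjusted p = 0.634) in RNA. At 21 h Eef2k fell by 1.16 in footprints (SE 0.18, adjusted p = 0.00143 in limma) and by 1.33 in RNA (SE 0.29, adjusted p = 0.0105). The footprint call held in every alternative and without any single library, with changes between -1.25 and -1.01. In RNA the adjusted p was 0.0662 without the first PBS library and 0.0691 without the second. Footprints also fell from 6 h to 21 h by 0.999 (SE 0.18, adjusted p = 0.00448). TE was not detectably different at this depth, at 0.17 (95% interval -0.46 to 0.80) against PBS at 21 h. Over the other settings that kept every library and tested the gene, the TE change ran from -0.020 to 0.53. In these bulk samples, fewer cells with the transcript and less of it per cell cannot be told apart.

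The RefSeq promoter of Eef2k (GRCm38.p6) holds 1 match to the composite element bound by C/EBP and ATF proteins (TGATGNAA, both strands searched). The match is printed because the eIF2 arm acts on transcription through such factors. Its part in the Eef2k change was not tested. In capitals, on the strand opposite to the motif as written, it begins 84 bases before the start site (chr7:120851097-120851120, plus strand).

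Eef2k: tctgcttgTTTCATCAagctcagc

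Of all promoters, 3.97% held this motif, and among the members it was found in Eef2k only, in 1 of 11 promoters. A match is a description of the letters and no sign of binding.

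The counts of calls give the background for these changes. At 21 h, 2 of 10 members passed the test in footprints (Eef2k and Eif2ak2, both lower), where 39.1% of 10383 genes did and 20.2% were lower, and 1 of 10 in RNA (Eef2k, lower), where 23.8% of 9443 genes did and 12.2% were lower. Voom called 5 of the 10 in footprints (1 higher and 4 lower), where it called 44.8% of all genes, and 4 in RNA, all lower, where it called 31.9%. Between 6 h and 21 h, 3 members passed in footprints, against 30.7% of all genes, and 1 in RNA, against 15.7%. At 6 h 0 members passed limma's test in footprints, where 2.04% of genes did, and 0 had an unadjusted p under 0.05, which 21.4% of genes had, or passed with voom. In RNA at 6 h 0 of the 9443 genes passed (0%), 1086 of them (11.5%) and 1 member, Rps6kb1, had an unadjusted p under 0.05, and voom called 242 genes with 1 member among them. For TE, 0 members passed at either time, against 0% of 9295 genes at 6 h and 0.409% at 21 h. The unadjusted p was under 0.05 for 0 members (7.64% of genes) at 6 h and for 1 (12.7%) at 21 h, and voom called 0 (14 of all genes) and 1 (153 of all genes, or 1.65%). The 2 libraries at 21 h lay outside the range of PBS for 9 of 10 members in footprints, where 70.3% of all genes did so, and for 8 of 10 in RNA, where 63.9% did. The median change of the 10 at 21 h was -0.15 in footprints and -0.28 in RNA, with 0.01 and 0.02 for all genes tested.

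**Figure D4:**
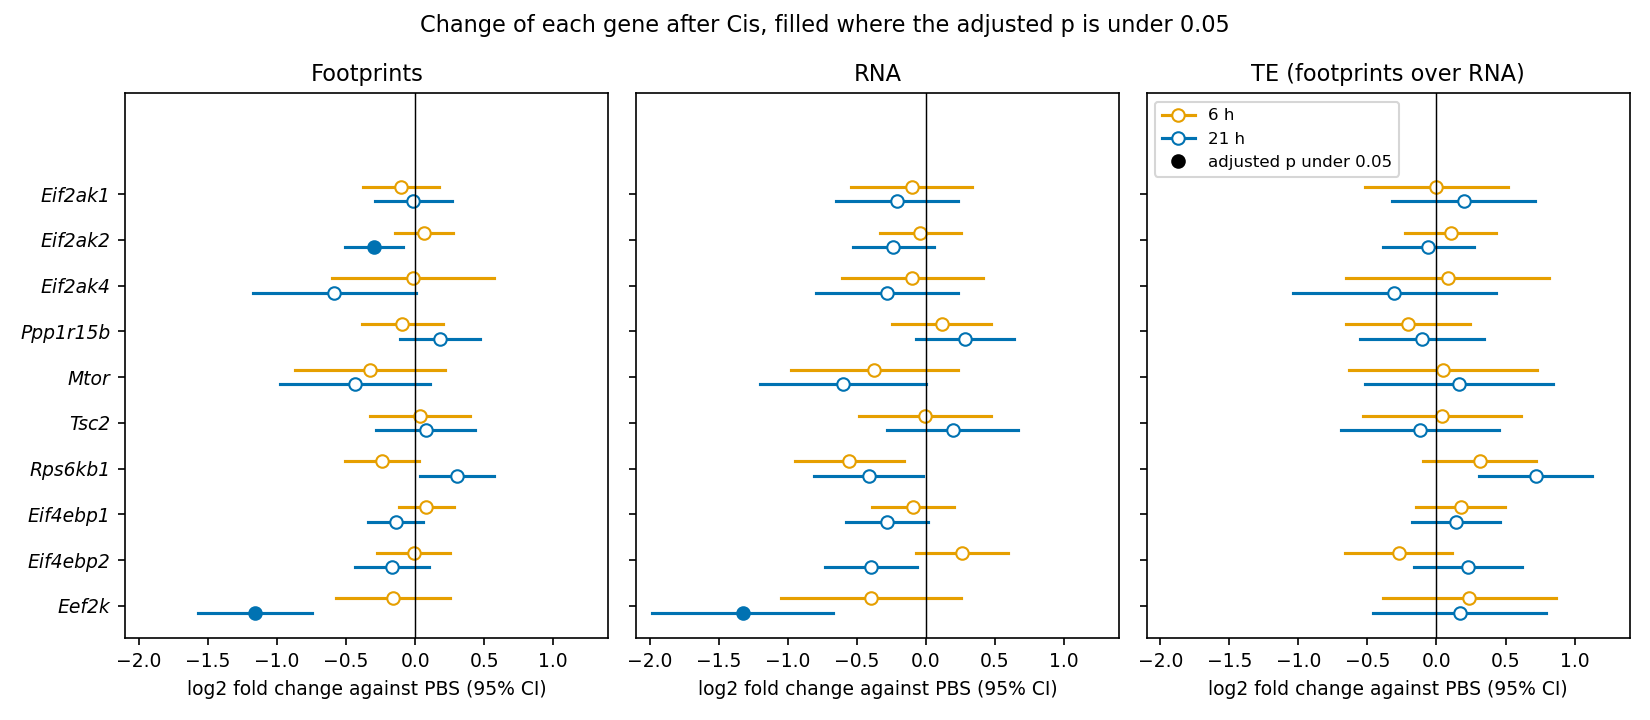
Log2 fold change against PBS (horizontal axes) of footprints, RNA and TE for each of the 10 genes at 6 h and 21 h, with lines for the 95% confidence interval and filled points for an adjusted p under 0.05. Filled points are seen for Eef2k in footprints and RNA and for Eif2ak2 in footprints, all at 21 h and below 0.

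Genes of the same pathways were taken from 3 lists. Of all 10383 genes tested in footprints at 21 h, 1960 rose and 2101 fell, or 39.1% together. In RNA 1093 of 9443 rose and 1152 fell, or 23.8% together. Of 25 other regulators and targets in the eIF2 arm, 11 rose and 6 fell in footprints at 21 h, and 7 rose and 0 fell in RNA (9 lay below 0 there), with medians of 0.23 and 0.18. The rises were led in both assays by Ddit3, a transcription factor downstream of eIF2 phosphorylation, and by Ppp1r15a. Ddit3 went from 11.7 and 11.3 to 150.2 and 138 scaled RPKM in footprints, a change of 3.59 (SE 0.12), and changed by 2.38 (SE 0.26) in RNA. Among those that fell was Oma1, a mitochondrial protease upstream of HRI, from 13.1 and 13.3 to 9.34 and 5.22 (-0.87, SE 0.24). Gcn1, an activator of GCN2, also fell, from 11.7 and 12.4 to 7.59 and 7.69 (-0.62, SE 0.17). With every library kept, Oma1 lost its call with no minimum level. Neither call held in limma when single libraries were left out, with adjusted p up to 0.0974 for Oma1 (without the second PBS library) and 0.101 for Gcn1 (likewise). The calls were lost for Oma1 also without the first PBS library (0.0855) or the second at 21 h (0.0867, with a change of -0.47), and for Gcn1 without the first PBS library (0.0661), the first at 21 h (0.0527) or the second (0.0516). Eif2s1, the alpha subunit that these kinases phosphorylate, had footprints of 649 and 706 with PBS, 487 and 489 at 6 h, and 842 and 838 at 21 h. It fell at 6 h by 0.47 (SE 0.07, adjusted p = 0.0289 in limma) and rose at 21 h by 0.31 (SE 0.07, adjusted p = 0.0114). Its RNA rose at 21 h by 0.47 (SE 0.12, adjusted p = 0.0208). With every library kept, the call at 6 h was lost with no minimum level, without the variance trend or with the replicate block. At 21 h the footprint call was lost without the trend, and the RNA call without the trend or with quantile normalization. The call at 6 h was lost without either PBS library (0.0571 and 0.107) or either library at 6 h (0.173 and 0.216). At 21 h it was lost without the first PBS library in footprints (0.0504) and without any 1 of the 4 libraries compared in RNA (0.061 to 0.122).

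Around Mtor and Tsc2, 53 of 57 genes of the mTOR complexes and their upstream control were tested in footprints and 49 in RNA. At 21 h 10 rose and 12 fell in footprints and 7 rose and 7 fell in RNA, with medians of -0.06 and 0.05. Of all genes tested, 39.1% passed in footprints and 23.8% in RNA. Rptor, the subunit that presents S6 kinase and the 4E-BPs to mTOR, went from 9.44 and 10.6 scaled RPKM with PBS to 4.88 and 6.26 at 6 h and 2.25 and 2.95 at 21 h in footprints. It fell at 21 h by 1.77 (SE 0.23, adjusted p = 0.000613) and in RNA by 1.71 (SE 0.26, adjusted p = 0.00181), from 4.45 and 4.11 to 0.81 and 1.13. The groups were far apart in both assays. Mapkap1, a subunit of mTOR complex 2, fell by 2.64 (SE 0.21) in footprints and by 2.33 (SE 0.26) in RNA, and Deptor, an inhibitory subunit of both complexes, by 1.86 (SE 0.20) in RNA. Sesn2, a leucine sensor that restrains mTOR complex 1, rose in footprints by 1.11 (SE 0.22) and Flcn, which acts on the Rag GTPases, by 0.98 (SE 0.20). In RNA Flcn rose by 0.98 (SE 0.29, adjusted p = 0.0362) and Mlst8, a subunit of both complexes, by 0.92 (SE 0.29, adjusted p = 0.0423). With every library kept, both RNA calls were lost with no minimum level. That of Flcn was lost also without the variance trend, and that of Mlst8 with the replicate block. Both RNA calls were lost without any 1 of the 4 libraries compared, with adjusted p of 0.0694 to 0.196 for Flcn and 0.0748 to 0.222 for Mlst8. Rheb, the GTPase on which tuberin acts, fell in footprints by 0.46 (SE 0.10, adjusted p = 0.00833), from 408 and 487 to 342 and 306. Rheb lost this call without the variance trend (adjusted p = 0.0508 in limma). Its RNA changed by 0.12 (SE 0.13, adjusted p = 0.537), and the footprint call was lost without the second library at 21 h (0.0522). Tsc1, the partner of tuberin, had a change of 0.58 in footprints (SE 0.23, adjusted p = 0.0805). In limma that change passed with quantile normalization (0.0284), without the variance trend (0.0301) and with voom (0.0208).

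**Figure D5:**
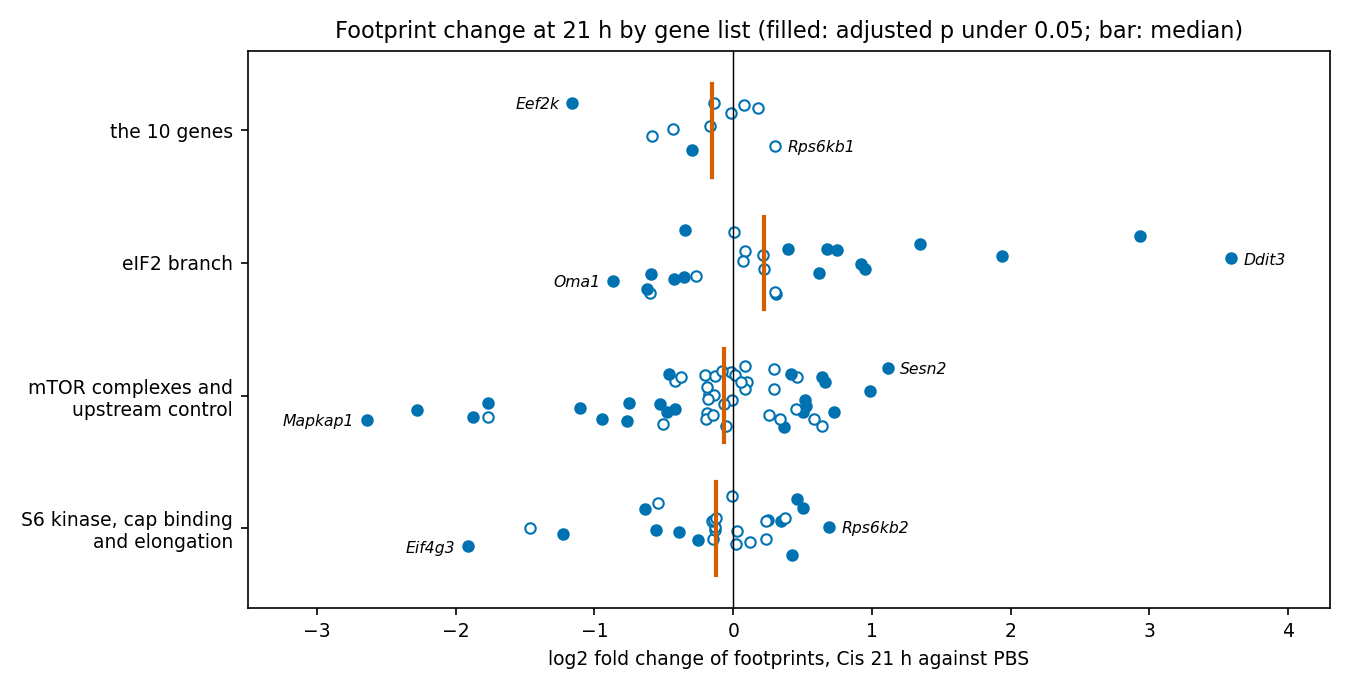
Log2 fold change of footprints at 21 h against PBS (horizontal axis) for the 10 genes and for 3 lists of other genes of the same pathways, a point per gene, filled for an adjusted p under 0.05, with a bar at the median of each list. The 10 genes lie between -1.16 and 0.30, while the lists reach from -2.64 (Mapkap1) to 3.59 (Ddit3).

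Downstream of S6 kinase, the 4E-BPs and eEF2K, 27 genes were tested in footprints, of which 6 rose and 6 fell at 21 h, and 26 in RNA, of which 4 rose and 6 fell. The medians were -0.12 and 0.04, and the shares of all genes that passed were 39.1% in footprints and 23.8% in RNA. Eif4e, the cap-binding target of the 4E-BPs, fell by 0.39 in footprints (SE 0.10, adjusted p = 0.0123). Its footprints went from 537 and 648 to 456 and 442 scaled RPKM. RNA of Eif4e fell by 0.46 (SE 0.13, adjusted p = 0.0318). With every library kept, both calls were lost without the variance trend, and the RNA call also without scaling. The footprint call was lost without the second PBS library (0.0532, with a change of -0.26) or the second at 21 h (0.0566), and the RNA call without any 1 of the 4 libraries (0.0775 to 0.172). Eef2 is the elongation factor that eEF2K inhibits. Its footprints rose from 657 and 737 to 797 and 864, by 0.25 (SE 0.09, adjusted p = 0.0431), and its RNA fell from 399 and 368 to 310 and 304, by 0.32 (SE 0.08, adjusted p = 0.0168). With quantile normalization neither call held, and the changes were 0.22 (0.0736) and -0.07 (0.459). Without the variance trend both were lost too (0.153 in footprints). In limma the footprint call was lost also with no minimum level (0.0685), only the groups compared (0.0843) or the replicate block (0.052). The footprint call was lost without the first PBS library (0.185, with a change of 0.17) or the second at 21 h (0.161), and the RNA call without the same libraries of that assay (0.12 and 0.0666).

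Rps6, the ribosomal protein that S6 kinase phosphorylates and a gene with near-identical copies in the genome, had a footprint change of -0.12 (SE 0.08, adjusted p = 0.232) and fell in RNA by 0.24 (SE 0.07, adjusted p = 0.0263). The RNA change of Rps6 was -0.02 (0.779) with quantile normalization and -0.15 (0.0847) without scaling. Rps6 lost the RNA call too with no minimum level or without the variance trend. Its call was lost also without the first PBS library (0.176), the first at 21 h (0.0641) or the second (0.0841). Rps6kb2, the second S6 kinase, rose in footprints by 0.69 (SE 0.23, adjusted p = 0.0424), from 3.54 and 2.86 to 5.29 and 5.61, on 19 to 29 reads, and lost the call without any 1 of the 4 libraries (0.0791 to 0.207). With every library kept, Rps6kb2 lost the call with no minimum level (0.0654), only the groups compared (0.0568), the replicate block (0.0595) or voom (0.0612). Eif4e2, a cap-binding relative of eIF4E, rose in footprints by 0.50 (SE 0.10). Eif4g3, an initiation scaffold, fell by 1.92 (SE 0.37) in footprints, on 5 and 14 reads at 21 h, and Eef2kmt, a methyltransferase of eEF2, fell by 1.23 (SE 0.16). In RNA Eif4a2, an initiation helicase, rose by 0.54 (SE 0.11), and Mknk2, a kinase of eIF4E, by 0.46 (SE 0.13). RNA of Eif4g3 fell by 1.11 (SE 0.36) and that of Larp1, a repressor of ribosomal protein mRNAs, by 0.62 (SE 0.12). With every library kept, Eif4g3 lost the RNA call with a pseudocount of 0.1 (0.0504), no minimum level (0.0664) or no scaling (0.0542). It was lost also with quantile normalization (0.148) or the replicate block (0.0632). Eif4a2 lost it without the variance trend (0.0625), and Mknk2 with quantile normalization (0.0861) or without the trend (0.0854). Each of these RNA calls was lost in limma without the second PBS library (adjusted p = 0.0576 for Eif4a2, 0.12 for Mknk2, 0.108 for Eif4g3 and 0.054 for Larp1). Mknk2 lost it also without the first PBS library (0.13) or the second at 21 h (0.168), and Eif4g3 without the first (0.154) or the second (0.109) at 21 h.

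Similarity of pattern was described for the members with the largest rise and the largest fall in footprints at 21 h, by Pearson's r of log2 values, centred within each assay, over the 12 libraries, which share their groups. Rps6kb1 was most like Fcgrt (r = 0.894), Zup1 (0.813) and Arhgap19 (0.803) among 9295 genes. The pattern of Eef2k was closer to its nearest genes, Nedd4 (0.992), Kirrel (0.991) and Commd10 (0.991). Among the members the nearest to Eef2k was Eif2ak2 (0.840), followed by Mtor (0.816), and Ppp1r15b ran most opposite to it (-0.768).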

How the data were processed

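The authors deposited RPKM per library for 1 transcript of each gene, with footprints divided by coding length and RNA reads by transcript length. The labels name cutadapt, STAR and GRCm39. The counting tool and annotation are not given in the sources used here. By the study's methods, cells were lysed with cycloheximide and footprints of 25 to 35 nt were kept. RPKM times length gave whole reads for 100.0% of values (tolerance 0.01), and thus the depth. Transcripts not listed were set to 0. Counts cover counting error only.

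Median-of-ratios factors put the libraries of an assay on 1 scale. Genes with a mean of at least 1 were kept, and log2(value + 0.5) was the response in limma (version 3.58.1, with R at version 4.3.3, trended eBayes, the 3 groups of an assay in 1 model). TE was the interaction of assay and treatment over 12 libraries. All p-values are two-sided and, unless called unadjusted, adjusted by Benjamini-Hochberg, with a threshold of 0.05. The procedure was also run on simulated reads with the same dispersion for every gene, which does not test the calls made here. An exact permutation test of 2 against 2 libraries cannot go below 0.333. Chi-square over its degrees of freedom was 1.46 to 4.12 between replicate libraries, above sampling noise.

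The members and lists were chosen with earlier results of these data known. Named were the 10 members, 10 fixed partners, and up to 2 genes with the largest rise and 2 with the largest fall of each list in each assay at 21 h. A gene that this rule names is not reported here. Other settings were a pseudocount of 0.1 or 1, a mean of at least 5 or no minimum, no scaling, quantile normalization, no variance trend, fewer groups, the replicate number as a block, voom on recovered reads, a threshold of 0.1, and each library left out. RefSeq promoters (GRCm38.p6) were matched by symbol. Tables were handled in pandas 2.3.3 and numpy 2.4.6 (Python 3.11.15), and plots in matplotlib 3.10.9.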

Additional observations from a re-analysis of the deposited data

Results flagged for a closer look

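For 4 changes the effect of Cis at 21 h differed from that at 6 h in a test of the difference itself. That test is the comparison of the 2 Cis groups, since both share the PBS libraries. In it 3 of the 10 members passed in footprints, against 30.7% of all genes, and 1 in RNA, against 15.7%. In footprints, Eef2k was lower at 21 h than at 6 h by a log2 difference of -0.999 (SE 0.18, adjusted p = 0.00448 in limma, both libraries at 21 h below both at 6 h). Eif2ak2 was lower by -0.36 (SE 0.09, adjusted p = 0.0193, likewise), having been 0.06 above PBS at 6 h and 0.30 below it at 21 h. Rps6kb1 was higher by 0.55 (SE 0.12, adjusted p = 0.0094, both libraries above), with changes against PBS of -0.24 at 6 h and 0.30 at 21 h. In RNA, Eif4ebp2 was lower by -0.66 (SE 0.15, adjusted p = 0.0177, both libraries below), with changes against PBS of 0.26 and -0.40. The Eif4ebp2 call was lost without any of 3 single libraries and the Rps6kb1 call without 1, as given above. The difference for Eif2ak2 was lost in limma without the first library at 6 h (adjusted p = 0.0979), the second (0.101) or the first at 21 h (0.0803), and with every library kept without the variance trend (0.0687).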

How the results depend on the processing

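Counts of members that passed the test were compared over 11 settings beside each library left out. Footprints at 21 h against PBS had 2, which became 3 at an adjusted p under 0.1 (48.1% of all genes called) and 5 with voom (44.8%). The count was 1 without the variance trend (34.2%), 1 with only the groups compared (36%) and 1 with the replicate block (37.3%). Without scaling the 2 were Eef2k and Rps6kb1 (0.0423), and Eif2ak2 was lost (0.0556). Footprints between 6 h and 21 h had 3, which became 4 at an adjusted p under 0.1 (39.9% of all genes), 4 with quantile normalization (28.9%) and 4 with voom (35%). Without the trend the count there was 2 (23.6%). RNA at 6 h had 0 (0% of all genes) and 1 with voom (2.56%). RNA at 21 h had 1 (23.8%), and 2 at an adjusted p under 0.1 (32.5%). The count there was 0 with a mean of at least 5 (30.5%), where Eef2k was not tested. It was 2 without the trend (17%) and 4 with voom (31.9%). RNA between 6 h and 21 h had 1 (15.7%), and 2 at an adjusted p under 0.1 (23.3%). It had 2 without the trend (8.37%) and 2 with voom (21.3%). TE at 21 h had 0 (0.409%), and 1 with voom (1.65%). The cause was not tested. With 1 library left out, the counts ran from 1 to 3 (footprints at 21 h, and footprints between 6 h and 21 h) and from 0 to 1 (RNA at 21 h, and RNA between 6 h and 21 h), and stayed at 0 in the others.

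The replicate numbers did not pair the libraries (correlations of deviations from -0.01 to 0.02), and with the replicate block 3869 genes passed in footprints at 21 h in place of 4061, 37 in footprints at 6 h in place of 212, and 5 for TE at 21 h in place of 38. Voom called 1275 genes in footprints at 6 h and 153 for TE at 21 h, and without the variance trend 0 passed in either. Of 34 changes past the threshold among the pathway genes that the naming rule gives, 16 were lost in at least 1 setting that kept every library, and 18 without a single library. Without scaling, the share of higher calls went from 47.8% to 70.6% in RNA between 6 h and 21 h and from 63.2% to 52.9% in TE at 21 h, and the median RNA change between 6 h and 21 h from 0.01 to 0.15.

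The sign of some values near 0 turned. The footprint change became 0.0037 without scaling and 0.0064 with only the groups compared for Eif4ebp2 at 6 h, 0.051 with quantile normalization and 0.00070 with only the groups compared for Eif2ak4 at 6 h, 0.023 without scaling for Eif2ak1 at 21 h, 0.040 with quantile normalization for Mtor between 6 h and 21 h and 0.033 with quantile normalization for Rps6 at 21 h. The RNA change became 0.0092 with quantile normalization and 0.0088 with only the groups compared and 0.014 with voom for Tsc2 at 6 h, 0.039 without scaling for Eif2ak1 between 6 h and 21 h and 0.059 with quantile normalization for Eif2ak3 at 21 h. The TE change became 0.0022 with a pseudocount of 0.1 and 0.079 without scaling and 0.0018 with only the groups compared for Eif2ak1 at 6 h, -0.020 with a pseudocount of 1 for Eef2k at 21 h and 0.019 with quantile normalization for Tsc2 at 21 h.

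With 1 library left out, footprint changes ran from -0.016 to 0.077 for Tsc2 at 6 h, -0.11 to 0.080 for Eif4ebp2 at 6 h, -0.11 to 0.075 for Eif2ak4 at 6 h, -0.22 to 0.025 for Ppp1r15b at 6 h, -0.097 to 0.087 for Eif2ak1 at 21 h, -0.24 to 0.026 for Mtor between 6 h and 21 h and -0.0013 to 0.18 for Eif2ak1 between 6 h and 21 h. RNA changes ran from -0.21 to 0.19 for Tsc2 at 6 h, -0.29 to 0.086 for Eif2ak4 at 6 h, -0.23 to 0.023 for Eif2ak1 at 6 h, -0.13 to 0.044 for Eif2ak2 at 6 h, -0.0098 to 0.24 for Ppp1r15b at 6 h, -0.0099 to 0.39 for Tsc2 at 21 h, -0.45 to 0.032 for Eif2ak1 at 21 h, -0.35 to 0.13 for Eif2ak1 between 6 h and 21 h, -0.32 to 0.094 for Eif2ak3 at 21 h and -0.064 to 0.15 for Tsc1 at 21 h. TE changes ran from -0.10 to 0.27 for Eif2ak4 at 6 h, -0.16 to 0.25 for Tsc2 at 6 h, -0.13 to 0.13 for Eif2ak1 at 6 h, -0.049 to 0.13 for Mtor at 6 h, -0.23 to 0.014 for Ppp1r15b at 21 h, -0.14 to 0.016 for Eif2ak2 at 21 h, -0.32 to 0.086 for Tsc2 at 21 h and -0.045 to 0.43 for Eif2ak1 at 21 h. RNA values of Eef2k at 21 h rest on 11 and 13 reads, which limits their precision.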
